A study of Homo sapiens with 4 samples.

Results

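The 34 genes described here encode the core machinery of macroautophagy and its cargo receptors. They were chosen by symbol from the 60676 genes of the deposited table, and each of the 34 symbols matched 1 gene. RNA-seq libraries were made from poly(A) RNA, as labelled, of 2 samples of HEK293, a line derived from human embryonic kidney and labelled wild type, and of 2 samples of Synph-293, the same line overexpressing synphilin-1. Both groups were labelled as untreated and were grown in serum-containing medium with penicillin and streptomycin. The labels give neither the promoter nor the vector of the transgene, nor whether Synph-293 is 1 clone or a pool, nor whether a group's libraries stem from independent cultures. The p-values therefore measure the spread between these libraries, which may be technical. Values of a group are given in the order replicate 1, replicate 2.

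Macroautophagy encloses cytoplasm in a membrane sac that fuses with the lysosome. The ULK1 kinase complex starts the process, the VPS34 lipid kinase complex marks the growing membrane with phosphatidylinositol 3-phosphate, and ATG9 vesicles, ATG2 lipid bridges and WIPI proteins supply and shape it. A ubiquitin-like conjugation system then attaches ATG8 proteins, the LC3 and GABARAP families, to the membrane, where receptors such as SQSTM1 (p62) bind them and bring ubiquitinated cargo. Synphilin-1 is itself known to form cytoplasmic inclusions, and p62 and LC3 are often used to follow the clearance of such inclusions. The values below are mRNA levels, and neither protein, ATG8 lipidation nor autophagic flux was measured in these libraries.

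SNCAIP, which encodes synphilin-1, separated the groups, with 1.01 and 1.20 CPM (counts scaled to a common library size with TMM factors) in HEK293 and 1366 and 1524 CPM in Synph-293. Library totals lay between 13284417 and 16998732 counts. The share of counts from the mitochondrial genome was 10.6% and 7.76% in HEK293 and 7.28% and 10.9% in Synph-293. Of 10 markers of the kidney lineage, PAX8 was the only one under 1 CPM in every library, and the summed level of the 10 was 44.8 and 54.4 TPM (values that the authors scaled for gene length and library size) in HEK293 and 70.5 and 64.3 TPM in Synph-293. The epithelial markers EPCAM and CDH1 were under 1 CPM in every library, while 6 epithelial markers summed to 903 and 1194 TPM in HEK293 and 2169 and 1721 TPM in Synph-293, mostly from KRT8, KRT18 and KRT19. Of 8 mesenchymal markers, 5 were tested and 2 rose (COL1A1 and COL3A1, edgeR), DCN, THY1 and COL1A2 were under 1 CPM in every library, and the 8 summed to 449 and 523 TPM in HEK293 and 765 and 683 TPM in Synph-293. Of 10 kidney markers 4 were higher and 1 lower, and of 6 epithelial markers 2 were higher and 0 lower (edgeR). Among all 16421 genes tested, 10.0% were higher and 6.58% lower. Of 7 blood markers 4 were under 1 CPM in every library, among them PTPRC at 0.225 CPM or less, and the 7 summed to between 138 and 183 TPM, mostly from HBB and HBA1. Of 5 endothelial markers 3 were under 1 CPM in every library, and the 5 summed to between 1.43 and 2.29 TPM. The part of these marker differences in the results below was not tested, and in bulk RNA fewer cells of a type and less RNA per cell cannot be told apart.

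For 24 of the 33 members that could be tested, the log2 fold change between Synph-293 and HEK293 was under 0.5 in size, and the called members moved in both directions. ULK2, the paralog of the ULK1 kinase, had the largest change, 4.18-fold lower in Synph-293. The ATG8 gene GABARAPL1, the ATG8 protease gene ATG4B and ATG16L1, which places the conjugation machinery on the membrane, rose by 1.56, 1.45 and 1.43-fold. The receptors SQSTM1 and TAX1BP1, the VPS34 subunit gene ATG14 and the E1-like enzyme gene ATG7 fell to between 1.52 and 1.57-fold below HEK293. In all, 33 of the 34 members passed the filter on low counts, and 3 of them were higher, 5 lower and 25 not past the threshold (quasi-likelihood test of edgeR, with p adjusted over all tested genes by the Benjamini-Hochberg method and a threshold of 0.05). Among all 16421 genes tested, 10.0% were higher, 6.58% lower and 16.6% called in either direction, against 24.2% of the members. The median log2 fold change was -0.10 over the members and -0.013 over all genes. The groups did not overlap in CPM for 17 members, or 51.5%, against 59.6% of all genes tested. Synph-293 lay above HEK293 in 6 of them and below in 11, against 30.5% and 29.1% of all genes. With a library left out, the group of 1 takes its spread from the other group. A lost or gained call in such a fit therefore does not show which libraries the call rested on. With each library left out, log2 fold changes ran from 0.506 to 0.569 for ATG4B, 0.492 to 0.546 for ATG16L1 and 0.52 to 0.756 for GABARAPL1. They ran from -2.13 to -1.99 for ULK2, -0.804 to -0.475 for ATG14 and -0.719 to -0.579 for ATG7. SQSTM1 had -0.788 to -0.494 and TAX1BP1 -0.712 to -0.501. With the median change of the 30 nearest genes on the chromosome removed, 1 member was higher (GABARAPL1) and 2 were lower (ULK2 and SQSTM1).

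**Figure D1:**
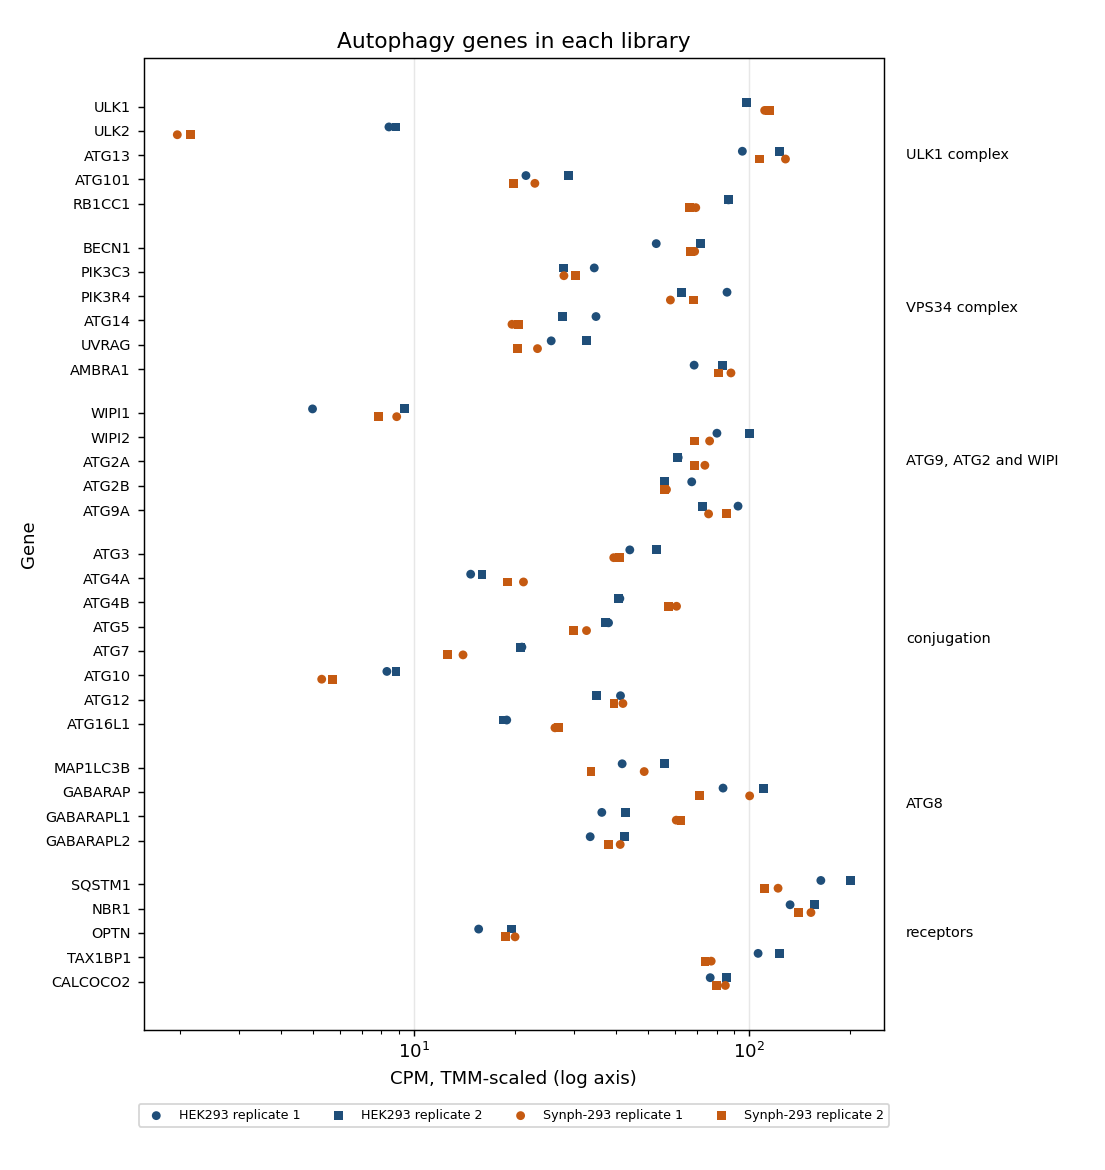
CPM (TMM-scaled, log axis) of the 33 tested members in each of the 4 libraries, with HEK293 in blue, Synph-293 in orange, replicate 1 as circles and replicate 2 as squares; points that coincide hide each other. ULK2 has its Synph-293 points near 2 CPM and its HEK293 points above 8 CPM, while most other genes have groups that overlap or lie close together.

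Among the called members, ULK2 gave the largest change and stayed called with the median of its chromosomal neighbours removed, as did GABARAPL1 and SQSTM1. ATG14 had a match to the E-box and GABARAPL1 had one to the cyclic AMP response element. The promoter sequences of these 4 members are shown. Each is the 250 bases before the RefSeq start of the gene (GRCh38.p14), written 5′ to 3′ on the gene's strand, and capitals mark the matches to the E-box and the cyclic AMP response element described below; matches to the GC box are left in lower case.
ULK2 promoter (chr17:19867937-19868186, minus strand): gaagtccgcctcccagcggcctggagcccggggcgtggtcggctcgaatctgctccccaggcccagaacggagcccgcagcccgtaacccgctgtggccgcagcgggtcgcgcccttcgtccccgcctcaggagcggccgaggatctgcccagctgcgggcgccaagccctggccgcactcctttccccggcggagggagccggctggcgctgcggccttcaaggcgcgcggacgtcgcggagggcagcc
GABARAPL1 promoter (chr12:10212627-10212876, plus strand): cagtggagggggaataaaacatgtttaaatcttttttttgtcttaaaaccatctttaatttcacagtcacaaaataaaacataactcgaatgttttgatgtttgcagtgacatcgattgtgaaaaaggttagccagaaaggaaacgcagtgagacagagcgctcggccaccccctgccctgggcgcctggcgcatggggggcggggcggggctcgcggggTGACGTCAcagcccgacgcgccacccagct
SQSTM1 promoter (chr5:179806143-179806392, plus strand): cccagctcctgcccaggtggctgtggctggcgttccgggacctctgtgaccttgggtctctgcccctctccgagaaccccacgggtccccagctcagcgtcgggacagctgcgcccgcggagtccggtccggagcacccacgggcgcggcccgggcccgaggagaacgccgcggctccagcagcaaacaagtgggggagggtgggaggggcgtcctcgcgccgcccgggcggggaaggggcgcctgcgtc
ATG14 promoter (chr14:55411831-55412080, minus strand): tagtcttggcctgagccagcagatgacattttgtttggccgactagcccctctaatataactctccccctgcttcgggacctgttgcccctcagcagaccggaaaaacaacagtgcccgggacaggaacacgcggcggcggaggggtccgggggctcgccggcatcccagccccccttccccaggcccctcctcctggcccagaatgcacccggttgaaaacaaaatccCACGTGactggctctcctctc
RefSeq starts were found for 31 of the 34 members, including the 8 called ones. Some starts lay inside the gene as drawn in the deposited annotation, by 419 bases in GABARAPL1, 480 in ATG4B and 41622 in ATG16L1. The whole GABARAPL1 window and its match thus lie within that annotated gene. ATG5, BECN1, MAP1LC3B and AMBRA1, not called, had starts 6681 to 9525 bases inside. Whether such windows are the promoters in use was not tested. Both strands of each window were searched for the E-box CACGTG, which reads the same on both strands and is the core of the site bound by TFEB, a regulator of lysosomal and autophagy genes, and for the cyclic AMP response element TGACGTCA, which also reads the same on both strands. The E-box was found in 2 of 31 members, ATG14 and ATG3, against 8.76% of the promoters of tested genes. In ATG14 its first base lay at -21 from the start, and the gene fell. The cyclic AMP response element was found in 1 of 31, GABARAPL1, at -30, against 2.79% of the promoters of tested genes. The printed matches overlapped no match of the other motifs searched. The FOXO motif TGTTTAC was found in 1 of 31 members (1.94% of tested genes) and the core antioxidant response element TGACNNNGC in 3 of 31 (11.9%), none of them among the 8 called members. The ATF4 composite site TGATGCAA was found in 0 of 31 (0.382%) and the GC box GGGCGG in 21 of 31 (67.1%), 5 of these in called members. The matches describe letters in these windows and were not tested as binding sites.

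In the ULK1 complex, ULK2 fell and its partner genes did not pass the threshold. ULK2 (ENSG00000083290, chromosome 17, 19770829 to 19867936, minus strand, GRCh38) had 8.42 and 8.84 CPM in HEK293 and 1.97 and 2.15 CPM in Synph-293, or 142, 118, 33 and 35 counts. The Synph-293 libraries were both far below the HEK293 libraries, with a log2 fold change of -2.06 ± 0.24 (SE, n = 2 each; edgeR adjusted p = 0.000234). The call was kept whichever library was left out, with log2 fold changes from -2.13 to -1.99. The deposited TPM gave another picture of the same gene: ULK2 was at 2.59 and 2.27 TPM in HEK293 and at 0.76 and 2.75 TPM in Synph-293, so that the groups overlapped. In limma on log2(TPM + 1) it was not called (log2 fold change -0.42, adjusted p = 0.433). Over its alternatives adjusted p ran from 1.39e-15 to 0.433, and such ranges for other genes below are also of adjusted p. These ranges include a block on the crossed pairing of replicates in edgeR, a setting added once the data had been seen. That block gave the low end for ULK2, ATG14, ATG4B and ATG7. Low ends given below for other genes may rest on it too, so no low end is read as support. The ratio of TPM to CPM for ULK2 was 1.28 in Synph-293 replicate 2 and between 0.257 and 0.386 in the other libraries, a 4.98-fold range, whereas the next largest range among members was 1.52-fold for ATG10 and the median was 1.16-fold. The cause of that difference was not tested. Because ULK2 is the least abundant tested member per length, it made up 6.88% and 6.28% of the summed TPM of ULK1 and ULK2 in HEK293, and 1.90% and 6.50% in Synph-293.

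ULK1, the main ULK kinase and the more abundant of the pair, had 98.2 and 98.0 CPM in HEK293 and 111.3 and 115.3 CPM in Synph-293. Its Synph-293 libraries lay slightly above those of HEK293, with a log2 fold change of 0.21 (95% interval -0.12 to 0.54) that did not pass (edgeR adjusted p = 0.378). RB1CC1 (FIP200), the scaffold of the complex, had 86.8 and 87.0 CPM in HEK293 and 69.3 and 66.5 CPM in Synph-293, a log2 fold change of -0.36 (edgeR adjusted p = 0.128). ATG13, a HORMA-domain adaptor and the most abundant member of the complex per length, had 95.5 and 122.9 CPM in HEK293 and 128.4 and 107.7 CPM in Synph-293. The groups overlapped, the log2 fold change was 0.11, and its sign turned with the processing (-0.0653 without HEK293 replicate 1). ATG101, the partner of ATG13, had a log2 fold change of -0.24 with overlapping groups.

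In the VPS34 complex, ATG14 fell and the catalytic core did not pass. ATG14 (chromosome 14, 55366391 to 55411830, minus strand), the subunit that directs VPS34 to the site of autophagosome formation, had 34.9 and 27.8 CPM in HEK293 and 19.6 and 20.6 CPM in Synph-293. The groups did not overlap, and the log2 fold change was -0.64 ± 0.17 (edgeR adjusted p = 0.0258). The call was lost without HEK293 replicate 1 (edgeR adjusted p = 0.0535) and without either Synph-293 library (0.198 and 0.125), and p ran from 1.78e-05 to 0.219 over its alternatives. UVRAG, the subunit of the alternative, endosomal VPS34 complex, had 25.7 and 32.7 CPM in HEK293 and 23.4 and 20.3 CPM in Synph-293, a log2 fold change of -0.41 (edgeR adjusted p = 0.135). BECN1 (Beclin 1), the shared scaffold, had 52.8, 71.7, 68.8 and 66.9 CPM in the same order of libraries, and HEK293 replicate 1 stood below the other libraries. Log2 fold changes were 0.13 for BECN1, -0.10 for PIK3C3 (the VPS34 kinase itself), -0.24 for PIK3R4 (the VPS15 pseudokinase) and 0.16 for AMBRA1 (a Beclin 1 regulator), and none of the 4 passed (edgeR).

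The genes that supply and shape the membrane did not pass the threshold, 0 of 5 (edgeR, with 0 of 5 also at an unadjusted p under 0.05 and 0 in DESeq2). ATG9A, the membrane-embedded lipid scramblase, had a log2 fold change of -0.04 (95% interval -0.41 to 0.34). The lipid transfer proteins ATG2A and ATG2B had 0.22 and -0.13. WIPI2, which binds phosphatidylinositol 3-phosphate and recruits ATG16L1, had 80.2 and 100.4 CPM in HEK293 and 76.2 and 68.9 CPM in Synph-293, a log2 fold change of -0.31 (edgeR adjusted p = 0.223), and was called without HEK293 replicate 1 (-0.47, adjusted p = 0.0371). Its paralog WIPI1 had the largest standard error of the members, 0.28 on the log2 scale, with 4.98 and 9.36 CPM in HEK293 and 8.88 and 7.86 CPM in Synph-293, and was called higher without HEK293 replicate 2 (0.74, adjusted p = 0.0217).

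In the conjugation system, ATG4B and ATG16L1 rose, ATG7 fell, and the groups of 7 of 8 genes (87.5%) did not overlap, against 59.6% of all genes tested. ATG4B (chromosome 2, 241637213 to 241673857, plus strand), the main protease that trims ATG8 precursors and releases ATG8 from membranes, had 41.2 and 40.7 CPM in HEK293 and 60.7 and 57.6 CPM in Synph-293. Its log2 fold change was 0.53 ± 0.15 (edgeR adjusted p = 0.0317). Its paralog ATG4A, on the X chromosome, had 14.8 and 16.0 CPM in HEK293 and 21.2 and 19.0 CPM in Synph-293, a log2 fold change of 0.39 that did not pass (edgeR adjusted p = 0.143). ATG16L1 (chromosome 2, 233210051 to 233295674, plus strand) had 18.9 and 18.5 CPM in HEK293 and 26.3 and 27.1 CPM in Synph-293. Its log2 fold change of 0.51 ± 0.16 stood at the edge of the threshold (edgeR adjusted p = 0.0489), was not called with no filter on low counts (0.0512) or in DESeq2 (0.134), and its alternatives ranged from 0.00104 to 0.560.

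ATG7 (chromosome 3, 11272309 to 11557665, plus strand), which activates both ATG8 and ATG12, had 21.0 and 20.8 CPM in HEK293 and 14.0 and 12.6 CPM in Synph-293. Its log2 fold change was -0.65 ± 0.17 (edgeR adjusted p = 0.0241), and it was not called in DESeq2 (0.0536), and p ran from 8.31e-05 to 0.262 over its alternatives. ATG10, the E2-like enzyme for ATG12, fell short of the threshold with a change of the same size: it had 8.30 and 8.84 CPM in HEK293 and 5.31 and 5.71 CPM in Synph-293, a log2 fold change of -0.64 ± 0.21 (edgeR adjusted p = 0.0621). ATG3, the E2-like enzyme for ATG8 and the most abundant of these genes per length in HEK293, had 44.1 and 52.8 CPM in HEK293 and 39.5 and 41.1 CPM in Synph-293. Its log2 fold change was -0.26, ATG5 had -0.27 and ATG12 had 0.09, and none of the 3 passed (edgeR). The calls of ATG4B, ATG16L1 and ATG7 were each lost without either Synph-293 library, at edgeR adjusted p from 0.109 to 0.314.

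Of the ATG8 genes, GABARAPL1 rose and the other 3 tested did not pass. GABARAPL1 (ENSG00000139112, chromosome 12, 10212458 to 10223128, plus strand) had 36.4 and 42.8 CPM in HEK293 and 60.6 and 62.7 CPM in Synph-293. The groups were well apart, with a log2 fold change of 0.64 ± 0.16 (edgeR adjusted p = 0.0173), and GABARAPL1 was the only member called in limma on log2 TPM. Its call was lost without Synph-293 replicate 1 (0.0967) or 2 (0.152), at log2 fold changes of 0.68 and 0.62, and p ran from 1.61e-06 to 0.152 over its alternatives. GABARAP, the most abundant member of all per length, had 228.6 and 294.9 TPM in HEK293 and 291.0 and 204.0 TPM in Synph-293. The spread of GABARAP within each group was wider than the distance between the groups, and its log2 fold change was -0.17 (95% interval -0.62 to 0.27). MAP1LC3B (LC3B), the family member most used as an autophagosome marker, behaved alike within groups, at 41.8 and 56.0 CPM in HEK293 and 48.6 and 33.8 CPM in Synph-293, with a log2 fold change of -0.25 (95% interval -0.69 to 0.20). GABARAPL2 had 33.6 and 42.5 CPM in HEK293 and 41.2 and 38.0 CPM in Synph-293, a log2 fold change of 0.06. GABARAP and MAP1LC3B were lowest in Synph-293 replicate 2, which had the highest mitochondrial share, and highest in HEK293 replicate 2. MAP1LC3A had counts of 0 and 0 in HEK293 and 1 and 1 in Synph-293, did not pass the filter on low counts and was not tested.

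As shares of the summed TPM of the 5 ATG8 genes, GABARAPL1 made up 9.39% and 8.47% in HEK293 and 13.1% and 15.6% in Synph-293. GABARAP made up 64.4% and 64.8% in HEK293 and 61.8% and 58.6% in Synph-293. MAP1LC3B made up 8.97% and 9.22% in HEK293 and 8.03% and 6.95% in Synph-293. GABARAP was thus the predominant ATG8 mRNA in every library, and GABARAPL1 went from about the level of MAP1LC3B to above it in TPM. These shares are given as a description without a test.

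**Figure D2:**
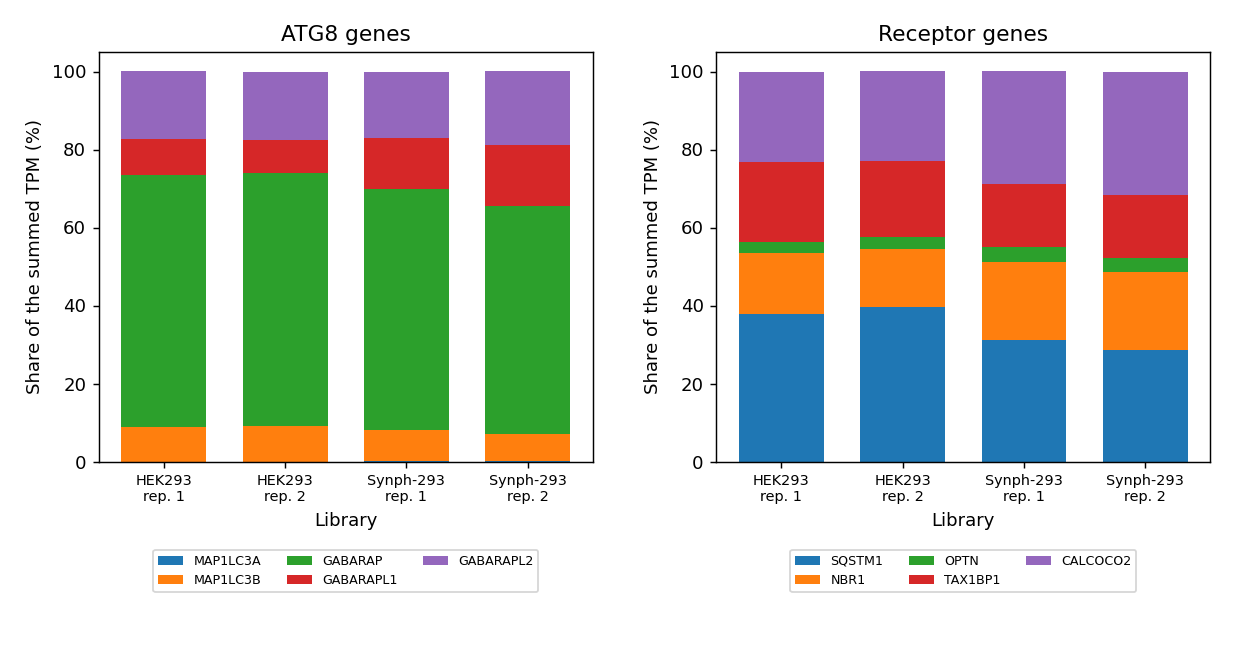
Share of the summed TPM (%) held by each of the 5 ATG8 genes (left) and the 5 receptor genes (right) in each of the 4 libraries. GABARAPL1 takes 13.1% and 15.6% of the ATG8 total in Synph-293 against 9.39% and 8.47% in HEK293, SQSTM1 takes 31.1% and 28.6% of the receptor total against 37.9% and 39.5%, and MAP1LC3A is too low to be seen.

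Of the cargo receptors, SQSTM1 and TAX1BP1 fell, and NBR1, OPTN and CALCOCO2 did not pass. SQSTM1 (ENSG00000161011, chromosome 5, 179806398 to 179838078, plus strand), the receptor for ubiquitinated aggregates, had 163.7 and 200.5 CPM in HEK293 and 122.0 and 111.3 CPM in Synph-293. The groups did not overlap, and the log2 fold change was -0.64 ± 0.17 (edgeR adjusted p = 0.0246). Leaving out Synph-293 replicate 1 or 2 ended the call at edgeR adjusted p of 0.161 and 0.285, and p ran from 1.04e-06 to 0.285 over its alternatives. SQSTM1 overlaps the gene MRNIP on the opposite strand, which had 574 and 361 counts in HEK293 and 860 and 1002 in Synph-293, the opposite direction, and MGAT4B, which had 1627, 1326, 1398 and 1175. The library kit was a stranded one, but whether counting used the strand was not stated, so reads of overlapping genes cannot be told apart here.

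TAX1BP1 (chromosome 7, 27739331 to 27844564, plus strand), a receptor that also restrains inflammatory signalling, had 106.4 and 123.1 CPM in HEK293 and 77.1 and 73.8 CPM in Synph-293. Its log2 fold change was -0.60 ± 0.16 (edgeR adjusted p = 0.0237), and the call was lost without Synph-293 replicate 1 or 2 (0.208 and 0.268), with p from 3.5e-06 to 0.857 over its alternatives. NBR1, which binds ubiquitin and ATG8 much as SQSTM1 does, had 132.5 and 157.0 CPM in HEK293 and 153.0 and 140.5 CPM in Synph-293, a log2 fold change of 0.02 (95% interval -0.34 to 0.38). CALCOCO2 (NDP52), a receptor for bacteria and damaged mitochondria, had 76.6 and 85.8 CPM in HEK293 and 84.9 and 80.0 CPM in Synph-293, a log2 fold change of 0.02 (-0.31 to 0.36). OPTN (optineurin), which acts in mitophagy and was the scarcest receptor, had 15.6 and 19.5 CPM in HEK293 and 20.0 and 18.7 CPM in Synph-293, a log2 fold change of 0.14 (-0.25 to 0.54). For these 3 the libraries of the groups overlapped, and the difference between their changes and that of SQSTM1 (95% interval -1.01 to -0.27) was not tested. SQSTM1 made up 37.9% and 39.5% of the summed TPM of the 5 receptors in HEK293 and 31.1% and 28.6% in Synph-293, CALCOCO2 23.2% and 23.0% against 28.8% and 31.5%, and TAX1BP1 20.4% and 19.4% against 16.2% and 16.2%.

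All called members except SQSTM1 lay among chromosomal neighbours whose median change had the same sign. GABARAPL1, SQSTM1 and ULK2 stayed called with the neighbours' median removed. The neighbours of a gene are the 30 tested genes closest to it, summarised by the median of their log2 fold changes. The adjusted p after removal uses the gene's own standard error alone. It takes the median as free of error, although that median comes from the same 4 libraries. It is therefore no full test of a gene against its neighbours. For TAX1BP1 on chromosome 7 this median was -0.54 over 3.77 Mb, close to its own -0.60, and with it removed -0.06 was left (adjusted p = 0.857). WIPI2, on the same chromosome, had neighbours at -0.51 and its own change of -0.31, so that 0.19 was left. ATG4B and ATG16L1, both on chromosome 2, had neighbours at 0.38 and 0.33, and 0.15 and 0.18 were left (adjusted p = 0.603 and 0.560). ATG14 and ATG7 had neighbours at -0.27 and -0.19, with -0.37 and -0.47 left, and were not called (0.219 and 0.118). By contrast the neighbours of SQSTM1 were higher in Synph-293, with a median of 0.28, and its log2 fold change with that removed was -0.92. Those of GABARAPL1 were at 0.09 (0.55 left) and those of ULK2 at -0.11 (-1.96 left), and these 3 genes stayed past the threshold. Copy number was not measured, and its part in these shifts was not tested.

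**Figure D3:**
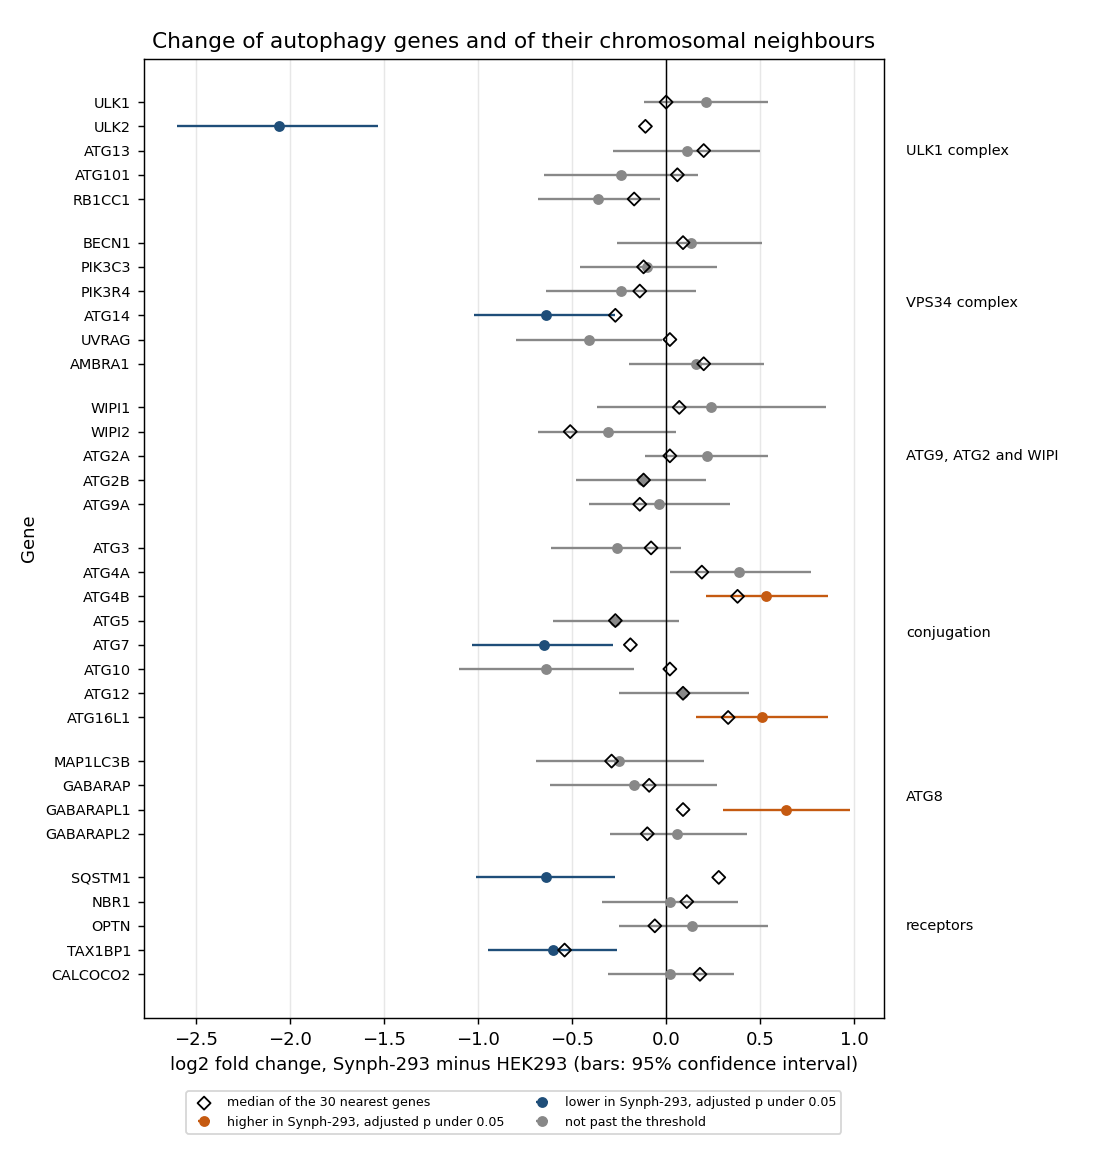
Log2 fold change (Synph-293 minus HEK293) of the 33 tested members with 95% confidence intervals (edgeR), coloured by call, and the median change of the 30 nearest genes as open diamonds. The diamonds of TAX1BP1, ATG4B and ATG16L1 lie inside the intervals of these genes at -0.54, 0.38 and 0.33, that of ATG14 (-0.27) lies at the edge, and those of SQSTM1 (0.28), GABARAPL1 (0.09), ULK2 (-0.11) and ATG7 (-0.19) lie outside.

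**Figure D4:**
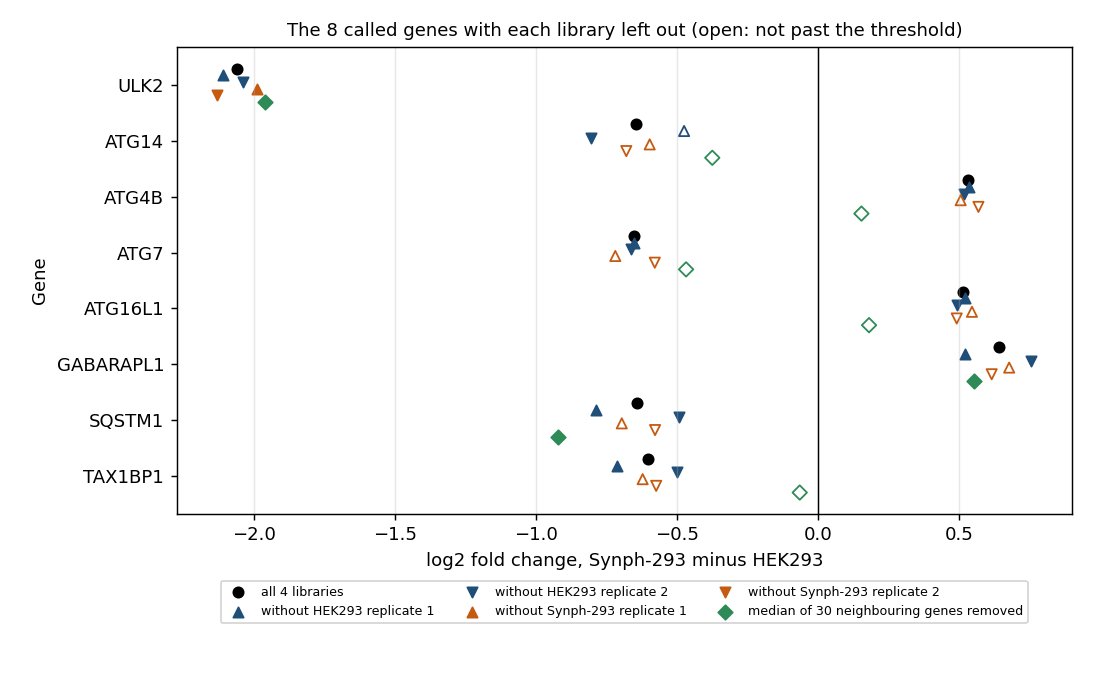
Log2 fold change (Synph-293 minus HEK293) of the 8 called members with all 4 libraries, with each library left out, and with the median of 30 neighbouring genes removed; filled symbols are past an adjusted p of 0.05. The direction is the same in all 6 settings for each gene, ULK2 stays filled throughout, and the other 7 are open without either Synph-293 library.

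The 4 lists of 63 further autophagy genes gave 2 higher and 7 lower among 62 tested (14.5%, against 16.6% of all genes), with a median log2 fold change of -0.08. Genes of autophagosome fusion with the lysosome held 4 of these among 15 tested (26.7%), all lower. Over all genes tested 16.6% were called and 6.58% were lower. VPS11, a core subunit of the HOPS tethering complex, fell from 67.8 and 71.3 CPM to 34.2 and 34.7 CPM (log2 fold change -1.01 ± 0.15, edgeR adjusted p = 0.00102). VPS41, another HOPS subunit, had 59.8 and 65.8 CPM in HEK293 and 39.8 and 37.7 CPM in Synph-293 and fell by 0.70 ± 0.15 on the log2 scale (edgeR adjusted p = 0.010). VAMP8, the SNARE on the lysosomal side, fell from 33.4 and 36.3 CPM to 20.7 and 15.6 CPM (-0.94 ± 0.18, adjusted p = 0.00486), and the tether EPG5 fell by 0.57 ± 0.15 (adjusted p = 0.0275). The neighbours of VPS11 and VPS41 had medians of -0.53 and -0.50, and with these removed neither was called (adjusted p = 0.0668 and 0.499). EPG5 was not called with its neighbours' median removed either (0.0671), which left VAMP8 as the only called gene of the list. In limma on log2 TPM and with a replicate block EPG5 was not called, and its groups overlapped in TPM. The VPS41 and EPG5 calls were lost without either Synph-293 library, and that of VAMP8 without Synph-293 replicate 2 (edgeR adjusted p = 0.0739).

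Among 18 organelle-specific receptors, 2 were called, both lower, a share of 11.1%. Of all genes tested 16.6% were called and 6.58% were lower. STBD1, a glycogen-binding receptor, fell from 10.4 and 8.61 CPM to 2.98 and 3.50 CPM (log2 fold change -1.56 ± 0.24, edgeR adjusted p = 0.00118) and passed in all 14 alternatives. The mitophagy receptor BNIP3 fell from 20.9 and 23.4 CPM to 14.4 and 10.6 CPM (-0.82 ± 0.20, edgeR adjusted p = 0.0152). Its call was kept in 10 of 14 alternatives. It was lost in limma on log2 TPM and with the neighbours' median removed (adjusted p = 0.134). With each library left out its log2 fold change ran from -1.05 to -0.618. Of 14 tested paralogs and accessory genes of the core machinery, 0 were called (edgeR and DESeq2, with 0 at an unadjusted p under 0.05, and 1, ATG9B, in limma on log2 TPM). Of 15 regulators, 2 were higher and 1 was lower, or 20.0% called. DDIT4 (REDD1), an inhibitor of mTORC1 signalling, rose from 16.4 and 16.4 CPM to 34.04 and 28.9 CPM (0.94 ± 0.17, edgeR adjusted p = 0.00314). TP53INP2, a nuclear and cytoplasmic autophagy cofactor, rose by 0.62 ± 0.18 (edgeR adjusted p = 0.0392). Its call was kept in 7 of 14 alternatives and was lost in DESeq2, in limma on log2 TPM and with a replicate block. With each library left out its log2 fold change ran from 0.512 to 0.722. DEPP1, a FOXO target, fell from 340.2 and 330.1 CPM to 13.8 and 14.9 CPM (-4.55 ± 0.19, adjusted p = 1.84e-07). TFEB was at 4.80 and 4.64 CPM in HEK293 and 8.17 and 6.38 CPM in Synph-293 and did not pass (edgeR adjusted p = 0.0924).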

How the data were processed

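RNA-seq libraries of 4 samples were sequenced as read pairs on a NovaSeq instrument, per the labels' protocols. The authors deposited, for each gene and sample, an estimated count in whole numbers, an RPKM value (not used here) and a TPM value, the last 2 normalised by the authors for length and library size. The submitters' processing notes name RSEM 1.3.1, STAR 2.7.1a, HTSeq 0.11.2, cutadapt 2.8, Cufflinks 2.2.1, featureCounts 2.0.0 and the build GRCh38.p13, without their roles. Estimated counts were tested in R 4.3.3 with edgeR 4.0.16 (filterByExpr at 10 counts per gene and 15 in total, TMM scaling, quasi-likelihood test on group alone), Synph-293 against HEK293, on all genes. The threshold was a Benjamini-Hochberg adjusted p of 0.05. SE is the log2 fold change divided by the square root of F, and 95% intervals use the t distribution on the test's degrees of freedom. DESeq2 1.42.0, limma 3.58.1 on log2(TPM + 1) and log2(TPM + 0.1), other scalings and filters, a replicate block, the removal of the neighbours' median and each library left out were alternatives. With the neighbours' median removed, p used the gene's own SE and took the median as free of error. On data simulated for this comparison with 16180 genes, edgeR recovered 90% of 100 genes changed 2-fold and 100% of 100 changed 4-fold, with 9 false calls. The simulation gave all genes the same dispersion, had no library effect and changed only well-counted genes. It held no change smaller than 2-fold, so it does not cover the smaller changes of most called members. Replicates differed by more than sampling noise (chi-square per degree of freedom 24.7 in HEK293 and 17.3 in Synph-293). The members and lists were chosen with earlier results of these data known. The genes named were SNCAIP, the 34 members (with full values for called, ATG8 and receptor members and the most abundant of each role) and up to 4 called genes with the largest change from each further list; TFEB and ATG9B and any marker gene were named after their values were seen. Of the 34 members, 27 overlap another annotated gene, 21 of these on the other strand, and 7 have a copy named after them, such as MAP1LC3B2; reads may be shared between them. Promoters are from RefSeq (GRCh38.p14).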

Additional observations from a re-analysis of the deposited data

How the results depend on the processing

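Intervals cover the spread of these 2 libraries a group only. The 8 called members kept their direction in all 14 alternatives. Their groups did not overlap in CPM, so leaving a library out could hardly reverse a direction. The other settings reuse the same libraries, so the kept direction is no independent support. Of the counts over all genes, the higher count of 1648 became 1086 in limma on log2(TPM + 0.1), and the lower count of 1081 became 521 and 474 in limma on log2(TPM + 1) and log2(TPM + 0.1), and 541 with the neighbours' median removed. With each library left out in turn, the higher count ran from 1049 to 2183 and the lower from 457 to 2042, where a lone library is assumed to vary like the other group. Higher members, 3 in the main test, were 1 in limma with either pseudocount and 1 with the neighbours' median removed, and 0 to 4 with a library left out. Lower members, 5 in the main test, were 0 in limma with either pseudocount, 2 with the neighbours' median removed, and 1 to 8 with a library left out. By role, limma with either pseudocount called 0 in the ULK1 complex, the VPS34 complex, the conjugation system and the receptors, DESeq2 called 1 in conjugation, and removing the neighbours' median left 0 in the VPS34 complex and in conjugation and 1 receptor. With a library left out, counts ran from 0 to 2 in the VPS34 complex, 0 to 1 for ATG9, ATG2 and WIPI genes, 0 to 4 in conjugation, 0 to 2 for ATG8 and 0 to 2 for receptors. Of the further lists, limma called 1 core paralog and 1 organelle receptor with either pseudocount, and removing the neighbours' median left 1 organelle receptor and 1 fusion gene. With a library left out, counts ran from 1 to 3 for organelle receptors, 1 to 6 for fusion genes and 2 to 6 for regulators.

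The replicate numbers are shared by the groups, but the labels do not say that they mark a culture or day, and deviations of same-numbered libraries correlated at -0.393 across genes. With a replicate block, 719 genes were lower over all genes, 0 members were higher and 1 was lower (ULK2), with 0 called in the VPS34 complex, conjugation, ATG8 and receptors. With the crossed pairing as a block, an alternative added once the data had been seen, 3251 genes rose and 3016 fell, 9 members were lower, and the role counts were 2 in the ULK1 complex, 2 in the VPS34 complex, 1 among ATG9, ATG2 and WIPI genes and 5 in conjugation, with 1 core paralog, 4 organelle receptors, 7 fusion genes and 7 regulators.

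Signs changed for members that were not called. With the neighbours' median removed, log2 fold changes became -0.0846 for ATG13, 0.0234 for PIK3C3, -0.0373 for AMBRA1, 0.19 for WIPI2, 0.105 for ATG9A, 0.0043 for ATG5, -0.00028 for ATG12, 0.048 for MAP1LC3B, -0.0951 for NBR1 and -0.16 for CALCOCO2. In limma, with a pseudocount of 1 and 0.1, they were -0.00615 and -0.00633 for ATG13, 0.00969 and 0.0104 for ATG9A, and -0.12 and -0.124 for ATG12, and ATG9A was at 0.0186 with upper-quartile factors. With each library left out, values ran from -0.0653 to 0.3 for ATG13, -0.0862 to 0.355 for BECN1, -0.247 to 0.0605 for PIK3C3, -0.45 to 0.00178 for PIK3R4, -0.168 to 0.742 for WIPI1, -0.206 to 0.142 for ATG9A, -0.0251 to 0.214 for ATG12, -0.431 to 0.0512 for GABARAP, -0.109 to 0.234 for GABARAPL2, -0.104 to 0.141 for NBR1, -0.0197 to 0.307 for OPTN and -0.063 to 0.102 for CALCOCO2. The causes of these changes were not tested.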

Other observations

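Within groups, the members' replicates often differed in the same sense. Of 33 members, 17 (51.5%) were higher in HEK293 replicate 2 than in replicate 1 and higher in Synph-293 replicate 1 than in replicate 2, against 33.2% of all genes tested, and 6 (18.2%) had the opposite pattern, against 33.8%. HEK293 replicate 2 and Synph-293 replicate 1 were the libraries with the lower mitochondrial shares, 7.76% and 7.28% against 10.6% and 10.9%. GABARAP, MAP1LC3B, BECN1 and ATG13 are among the 17, and were chosen here after their values were seen. The part of library quality in this pattern was not tested.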
